A study of Rattus norvegicus with 8 samples.

Results

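The 10 genes described here are cytokines, chemokines, inhibitors and an adhesion molecule whose transcription is driven by NF-kB, namely Cxcl1, Cxcl2, Ccl2, Ccl20, Il1b, Il6, Tnf, Nfkbia, Tnfaip3 and Icam1. A gene was taken from the array where the platform annotation gave a probe set that single symbol. This found 9 of the 10, with 1 probe set each, among 18166 genes, and Tnfaip3 was not analysed here. Their RNA was measured in alveolar type II cells, the surfactant-making epithelial cells of the lung, isolated from 4 male Sprague Dawley rats. Cells of each rat were split into 1 well given AdGFP, an adenovirus that carries green fluorescent protein, and 1 well given AdHIF1a, an adenovirus that carries a mutant of the hypoxia-inducible factor subunit HIF1a that stays active in the presence of oxygen. All 8 wells therefore received an adenovirus, at 20 infectious units per cell (the multiplicity of infection) over 3 h. All were plated on 80% rat tail collagen and 20% Matrigel with 5% rat serum, with RNA harvested 24 h later. Fetal bovine serum, at 2%, was likewise shared by all 8 wells. Each pair of wells also had its own extraction date, so that rat and date cannot be told apart, but both are shared within a pair. The rats' age was not given in the sources used here.

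NF-kB is a family of dimeric transcription factors held in the cytoplasm by IkB proteins. Receptors for tumour necrosis factor, interleukin-1 and microbial products activate a kinase that marks IkB for destruction, and the freed dimers enter the nucleus and switch on genes of inflammation. Among these genes are chemokines that recruit neutrophils and monocytes, the cytokines that start further rounds of signalling, the adhesion molecule that leukocytes grip, and the pathway's own inhibitors. Alveolar type II cells respond to inflammatory signals in this way, and alveolar macrophages, which can accompany them in culture, are a major source of interleukin-1 beta and tumour necrosis factor.

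The comparison asked how the level of these transcripts differed between AdHIF1a and AdGFP wells of the same rat. Of the 9 measured genes, only Icam1 passed the test. It was lower in AdHIF1a wells of all 4 rats, by 1.52-fold, and the call was lost without rat 2, 3 or 4. Cxcl2, a neutrophil chemokine, had the largest estimate (2.60-fold higher, in 4 of 4 rats) and lay just outside the threshold, with an adjusted p of 0.0549, and inside it under 5 of the 10 alternatives that keep all rats. The other 7 genes gave estimates of less than 2-fold in either direction with intervals that included no difference, and 6 of them were higher in some rats and lower in others. In total 0 members were called higher and 1 lower, against 5.68% and 7.77% of all genes tested (limma, Benjamini-Hochberg adjusted p under 0.05 over all 18166 genes). At an unadjusted p under 0.05 there was 1 member in each direction, against 2214 higher and 2806 lower of all 18166 genes. With 1 of 9 called in either direction, the share of these genes was close to the 13.4% of all genes. Levels are log2 signals, so that a difference of 1 is a doubling. All differences are AdHIF1a minus AdGFP within rats ± SE from the paired fit (4 rats), and levels are means ± SD (n = 4 wells).

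**Figure D1:**
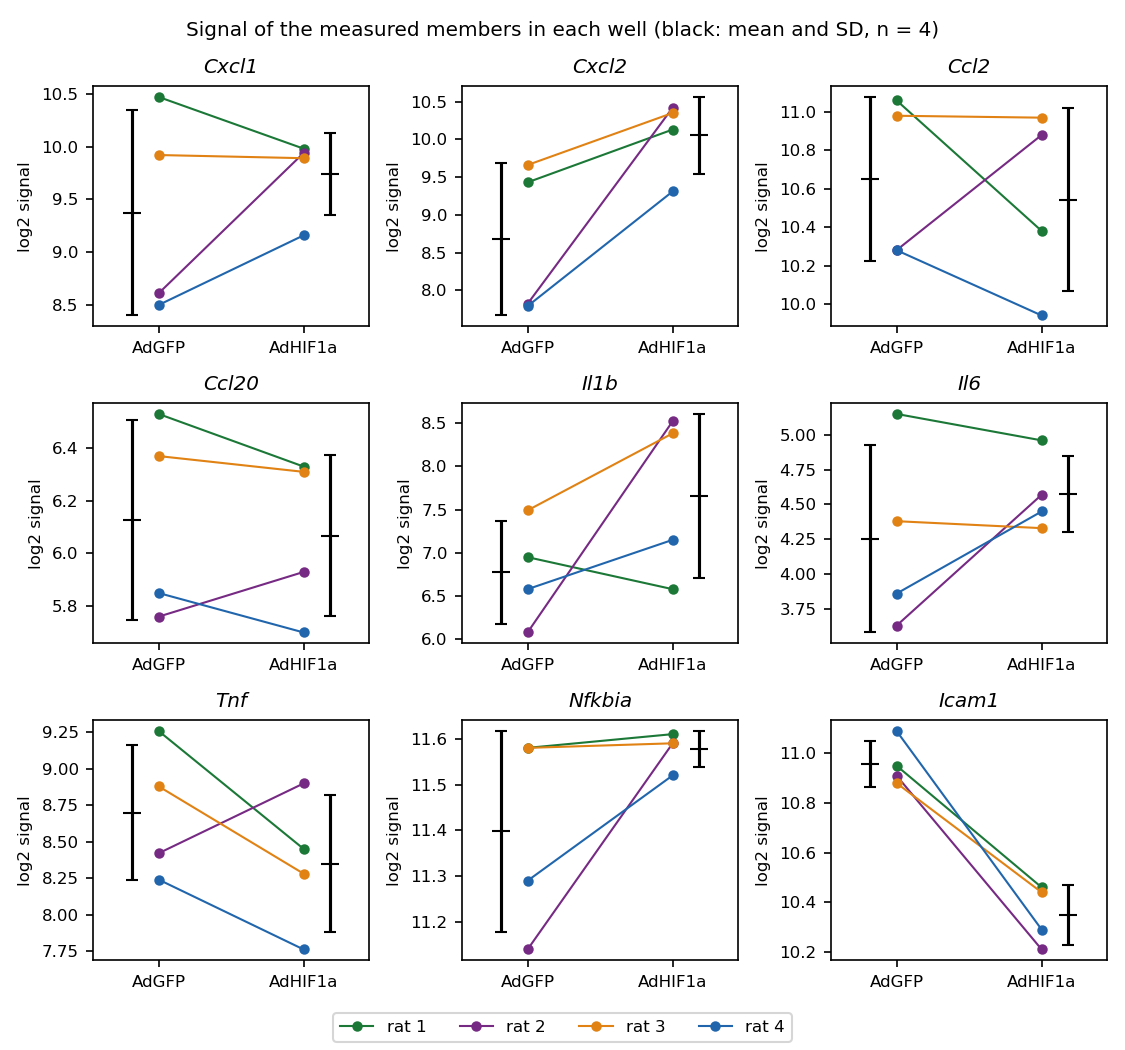
Log2 signal (vertical axes, a separate scale for each gene) of the 9 measured genes in the AdGFP and AdHIF1a well of each rat, joined by a line per rat, with the mean and SD of each group in black. The lines of Icam1 all slope down and those of Cxcl2 all slope up, while Cxcl1, Ccl2, Ccl20, Il1b, Il6 and Tnf have lines in both directions.

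The chemokines Cxcl1 and Cxcl2 are ligands of the receptor Cxcr2 and draw neutrophils into the lung. With AdGFP, Cxcl2 gave log2 signals of 9.43, 7.82, 9.66 and 7.79 in rats 1 to 4. In their AdHIF1a wells it gave 10.13, 10.42, 10.35 and 9.31. The AdHIF1a well was the higher of the pair in every rat, but the groups overlapped, because the AdHIF1a well of rat 4 lay below the AdGFP wells of rats 1 and 3. The differences were 0.70, 2.60, 0.69 and 1.52, with a mean of 1.38 ± 0.34, or 2.60-fold (95% interval 1.44 to 4.67, limma adjusted p = 0.0549). Under the 5 alternatives in which it passed, the limma adjusted p was 0.0181 with the variance prior taken from named genes alone, 0.0272 and 0.0454 with filters on dim genes, 0.0293 after median centring and 0.0363 with a trended prior. It did not pass without the rat as a block (0.0885) or without any 1 of the rats (0.068 to 0.198).

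Cxcl1 gave 10.47, 8.61, 9.92 and 8.50 in the AdGFP wells and 9.98, 9.94, 9.89 and 9.16 in the AdHIF1a wells of rats 1 to 4. The AdGFP wells were spread widely, and 3 of the 4 AdHIF1a wells were nearly equal. The well of rat 2 was higher with AdHIF1a by 1.33 and that of rat 4 by 0.66, that of rat 3 was level (-0.03) and that of rat 1 was lower (-0.49). The mean difference was 0.37 ± 0.30 (95% interval -0.39 to 1.12, limma adjusted p = 0.509). Within rats the difference of Cxcl2 exceeded that of Cxcl1 by 1.19, 1.27, 0.72 and 0.86, a mean of 1.01 ± 0.26 (SD, n = 4 rats), in 4 of 4 rats. An exact two-sided sign-flip permutation test over the rats gave p = 0.125, the smallest that 4 pairs allow, and the pair was chosen after its values were seen. The probe sequences are not used here, and signal shared between the probe sets of these closely related paralogs cannot be told apart from signal of each gene.

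The 2 genes lie near each other on chromosome 14, and the stretch before each start is shown because both hold a kB motif, the site that NF-kB dimers bind, at a like distance from the start. The sequences are the 250 bases before the annotated start on the gene's strand (RefSeq, GRCr8), Cxcl1 at chr14:17479322-17479571 and Cxcl2 at chr14:17467256-17467505, both on the minus strand. Capitals mark bases that match the 10-base kB consensus or its 9-base form GGANNTTCC on either strand.
Cxcl1: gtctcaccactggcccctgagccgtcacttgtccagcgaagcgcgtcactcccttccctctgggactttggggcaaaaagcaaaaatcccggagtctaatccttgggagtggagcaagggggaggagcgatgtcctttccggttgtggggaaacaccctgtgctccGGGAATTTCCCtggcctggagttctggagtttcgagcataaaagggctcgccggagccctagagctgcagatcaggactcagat
Cxcl2: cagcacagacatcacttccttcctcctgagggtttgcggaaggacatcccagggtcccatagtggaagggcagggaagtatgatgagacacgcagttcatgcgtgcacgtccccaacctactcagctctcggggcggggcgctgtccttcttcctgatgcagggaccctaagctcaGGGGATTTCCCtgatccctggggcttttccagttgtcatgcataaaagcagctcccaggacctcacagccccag
In Cxcl1 the capitals cover bases 84 to 74 before the start, where the match GGGAATTTCC overlaps one on the other strand and one of the 9-base form. In Cxcl2 they cover bases 74 to 64, where GGGGATTTCC and GGGATTTCCC overlap. The core of the HIF-binding motif, ACGTG or GCGTG on either strand, had 3 matches in the Cxcl2 stretch, at bases 162 to 158, 150 to 146 and 145 to 141 before the start, and 0 in that of Cxcl1. A match describes these letters, and binding was not measured.

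Ccl2 recruits monocytes through Ccr2. Its AdGFP wells gave 11.06, 10.28, 10.98 and 10.28 and its AdHIF1a wells 10.38, 10.88, 10.97 and 9.94 for rats 1 to 4. The groups overlapped over most of their range, and the well of rat 2 was higher with AdHIF1a while the other 3 were lower or level. The mean difference was -0.11 ± 0.21 (95% interval -0.64 to 0.43, limma adjusted p = 0.805), and it turned to 0.08 without rat 1. Ccl20, which draws dendritic cells and lymphocytes through Ccr6, gave 6.53, 5.76, 6.37 and 5.85 in the AdGFP wells and 6.33, 5.93, 6.31 and 5.70 in the AdHIF1a wells. Its wells followed the rat more than the virus, and its difference of -0.06 ± 0.10 had the narrowest interval of the 9 genes (-0.30 to 0.18, adjusted p = 0.758 in limma).

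Il1b, Il6 and Tnf encode cytokines that act early in inflammation. Il1b, the precursor of interleukin-1 beta, gave 6.95, 6.08, 7.49 and 6.58 in the AdGFP wells and 6.58, 8.52, 8.38 and 7.15 in the AdHIF1a wells of rats 1 to 4. Wells of rats 2, 3 and 4 were higher with AdHIF1a by 2.44, 0.89 and 0.57, and the well of rat 1 was lower by 0.37 log2 units (-0.37). The mean of 0.88 ± 0.44 had the widest interval of the 9 genes (-0.20 to 1.97, limma adjusted p = 0.265), and it was 0.36 without rat 2 and 1.30 without rat 1.

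Tnf, tumour necrosis factor, gave 9.26, 8.42, 8.88 and 8.24 in the AdGFP wells and 8.45, 8.90, 8.28 and 7.76 in the AdHIF1a wells. It was lower with AdHIF1a in rats 1, 3 and 4 (-0.81, -0.60 and -0.48) and higher in rat 2 (0.48). Its sign was that of Il1b in rats 1 and 2 and the opposite in rats 3 and 4. The mean difference was -0.35 ± 0.22 (95% interval -0.91 to 0.20, limma adjusted p = 0.384), and -0.63 without rat 2 (adjusted p = 0.0792). Il6, interleukin-6, gave 5.15, 3.63, 4.38 and 3.86 with AdGFP and 4.96, 4.57, 4.33 and 4.45 with AdHIF1a. Its mean of 0.32 ± 0.21 (-0.20 to 0.85, adjusted p = 0.398) came from rats 2 and 4, with 0.94 and 0.59, against -0.19 and -0.05 in rats 1 and 3. The AdGFP mean of Il6 (4.26 ± 0.67) lay at the lower quartile of all genes' mean signals, where differences between low signals are compressed.

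Nfkbia encodes IkB alpha, the inhibitor that NF-kB itself induces and that closes the loop. The AdGFP wells gave 11.58, 11.14, 11.58 and 11.29 and the AdHIF1a wells 11.61, 11.59, 11.59 and 11.52. The 4 AdHIF1a wells were nearly equal, with an SD of 0.04 against 0.22 in the AdGFP wells. The differences were positive in 4 of 4 rats but only 0.03 and 0.01 in rats 1 and 3, against 0.45 and 0.23 in rats 2 and 4. The mean was 0.18 ± 0.11 (95% interval -0.09 to 0.45, limma adjusted p = 0.358). The stretch before its start is shown because it holds kB matches at separate places, chr6:78597073-78597322 on the minus strand, with the same marking as above.
Nfkbia: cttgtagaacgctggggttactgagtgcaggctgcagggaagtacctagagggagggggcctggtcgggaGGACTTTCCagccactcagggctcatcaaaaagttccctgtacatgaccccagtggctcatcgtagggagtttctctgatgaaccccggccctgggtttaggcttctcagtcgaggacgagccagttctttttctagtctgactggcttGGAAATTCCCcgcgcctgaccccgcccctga
GGACTTTCC covers bases 180 to 172 before the start, and GGAAATTCCC bases 31 to 22.

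Icam1 is the surface protein that the leukocyte integrins made from Itgal or Itgam with Itgb2 bind, and it is abundant on type I cells of the alveolus. With AdGFP it gave 10.95, 10.91, 10.88 and 11.09 in rats 1 to 4, against 10.46, 10.21, 10.44 and 10.29 with AdHIF1a. Every AdHIF1a well lay below every AdGFP well, and Icam1 was the only 1 of the 9 genes whose groups did not overlap, which 22.5% of all genes did not. The mean level was 10.96 ± 0.09 with AdGFP and 10.35 ± 0.12 with AdHIF1a (SD). The difference of -0.61 ± 0.10 (limma adjusted p = 0.0181) is a fold of 1.52, with a 95% interval of 1.28 to 1.81. The differences were -0.49, -0.70, -0.44 and -0.80 in rats 1 to 4. It was called under each of the 10 alternatives to the fit, scaling, filter and prior (-0.69 to -0.57, adjusted p 0.00215 to 0.028), but with 3 rats only without rat 1 (0.038). Without rat 2, 3 or 4 the adjusted p was 0.0988, 0.0514 and 0.0923, with differences of -0.58, -0.66 and -0.54.

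The fall of Icam1 went with lower type I cell markers, genes of the thin gas-exchange cells that type II cells can become. Of 7 such markers 5 were called lower and 0 higher, with a median difference of -1.08, and their summed signal ran from 13.48 to 13.91 in the AdGFP wells and from 12.31 to 13.02 in the AdHIF1a wells. In RNA from whole wells, fewer cells of a type and less RNA per cell cannot be told apart, and the part of this shift in the Icam1 difference was not tested. The stretch before Icam1 is shown because its kB match lies elsewhere than in the chemokine genes, chr8:27829595-27829844 on the plus strand.
Icam1: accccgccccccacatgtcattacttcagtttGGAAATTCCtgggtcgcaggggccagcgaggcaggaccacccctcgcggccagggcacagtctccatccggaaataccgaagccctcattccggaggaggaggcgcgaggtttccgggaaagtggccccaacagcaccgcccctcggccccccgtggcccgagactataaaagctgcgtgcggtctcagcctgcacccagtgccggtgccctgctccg
GGAAATTCC, the 9-base form, covers bases 218 to 210 before the start, and the HIF core GCGTG had 1 match, at bases 43 to 39.

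Entries for 9 of the 10 genes, all but Ccl2, were found in the RefSeq table. The 10-base kB consensus had a match in 6 of these 9 stretches, the 9-base form in 6 and either form in 8, all but Il1b. The forms can overlap, as in Cxcl1, Il6, Nfkbia and Tnfaip3. Among the 33465 stretches of the same length in the table, 6.33% held the consensus and 3.36% the 9-base form. The HIF core had a match in 4 of the 9, namely Cxcl2, Ccl20, Tnfaip3 and Icam1, against 36.7% of all stretches. Genes with a HIF core match were Cxcl2, with the largest estimate, Icam1, which was lower, and Ccl20, which had an estimate near 0.

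**Figure D2:**
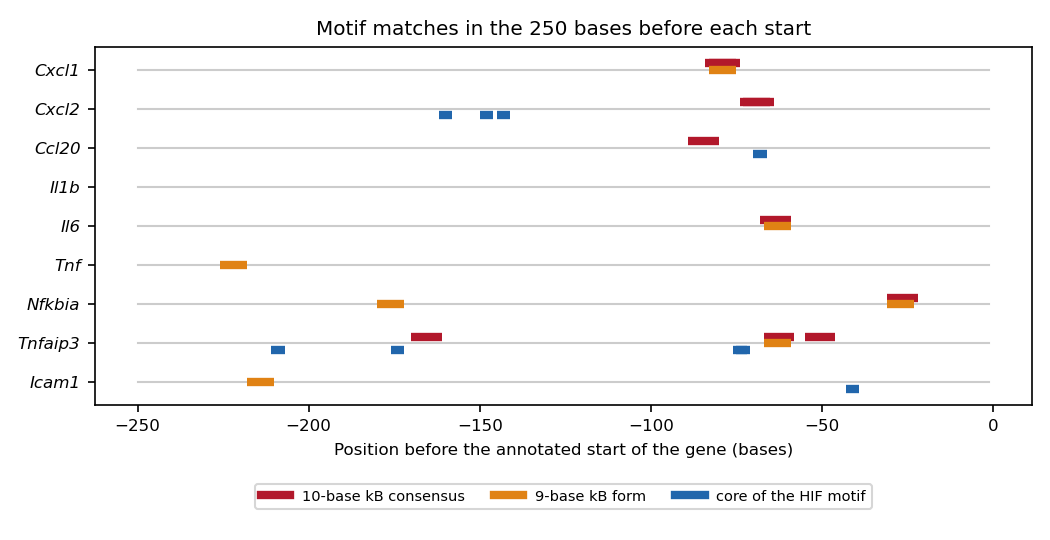
Position of motif matches (horizontal axis, bases before the annotated start) in the 250 bases upstream of the 9 genes with an entry, in red for the 10-base kB consensus, orange for its 9-base form and blue for the HIF core. Cxcl1, Cxcl2, Ccl20, Il6 and Tnfaip3 have a kB match between bases 89 and 58 before the start, while that of Icam1 lies at bases 218 to 210.

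In the AdGFP wells, 8 of the 9 genes, all but Icam1, gave a higher signal in rats 1 and 3 than in rats 2 and 4. This split was chosen after the values were seen, and its share over all genes was not computed. In the AdHIF1a wells only Ccl20 kept it (6.33, 5.93, 6.31 and 5.70 in rats 1 to 4). Cxcl2, for example, gave 10.13, 10.42, 10.35 and 9.31 there. Rat 2 had a positive difference for 8 of the 9 genes (median 0.60, from -0.70 for Icam1 to 2.60 for Cxcl2). Rat 1 had a negative difference for 7 of the 9 (median -0.37). Rats 3 and 4 were mixed, with 3 and 5 positive and medians of -0.03 and 0.23. A low AdGFP value also raises the difference computed from it, so these patterns are not separate measurements. The SD between wells was smaller with AdHIF1a for 5 of the 9 genes and larger for Ccl2, Il1b, Tnf and Icam1.

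**Figure D3:**
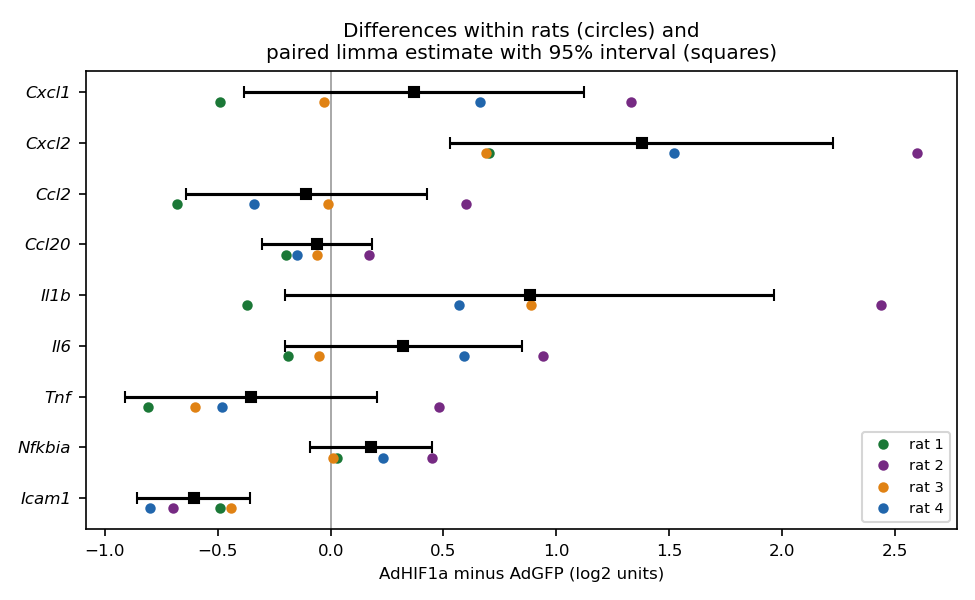
AdHIF1a minus AdGFP in log2 units (horizontal axis) for each gene, with circles for the 4 rats and squares with bars for the paired limma estimate and its 95% interval. The intervals of Icam1 (-0.86 to -0.36) and Cxcl2 (0.53 to 2.22) lie to either side of 0, and rat 2 is the highest circle for all genes but Icam1.

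The summed signal of leukocyte markers, in which the brightest genes weigh most, fell in rat 1 but not in rats 2 to 4. Over 16 genes it went from 11.66 to 10.85 in rat 1 and from 12.39 to 12.45 in rat 2. In rat 3 it went from 11.74 to 11.84, and in rat 4 from 11.79 to 11.92. The markers had a median difference of -0.62 in rat 1 and of -0.01, -0.07 and 0.00 in rats 2 to 4. The range was 11.66 to 12.39 in AdGFP wells and 10.85 to 12.45 in AdHIF1a wells. Of the 16 genes the macrophage marker Adgre1 was called lower and 0 higher. At an unadjusted p under 0.05 in limma, 5 were lower and 0 higher, against 2806 and 2214 of all 18166 genes. Adgre1 had mean signals of 4.37 (AdGFP) and 3.83 (AdHIF1a), near the lower quartile of all genes (4.26). The leukocyte antigen gene Ptprc gave 7.01 ± 0.41 and 6.75 ± 0.51 (SD) and was lower with AdHIF1a in 4 of 4 rats. So were Mrc1, Csf1r, Laptm5 and Adgre1. Of the 16 markers, 10 had a negative and 6 a positive mean difference. In rat 1 the signals of Il1b and Tnf were lower with AdHIF1a (-0.37 and -0.81). Tnf was also lower in rats 3 and 4 (-0.60 and -0.48), where the summed leukocyte signal was not lower, and higher in rat 2 (0.48). Il1b was higher in rats 2, 3 and 4 (2.44, 0.89 and 0.57). The part of leukocyte RNA in the cytokine values was not tested.

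Type II cell markers and known HIF targets were read as checks of the wells. The surfactant gene Sftpc, a type II cell marker, gave 12.34 ± 0.17 and 12.62 ± 0.13 (SD) in AdGFP and AdHIF1a wells and was not called. Of the 9 measured type II markers, 4 were called lower and 2 higher, with a median difference of -0.44. The lower ones were Napsa (-1.52), Lpcat1 (-0.80), Lamp3 (-0.78) and Nkx2-1 (-0.44), and the higher ones Sftpa1 (0.885) and Sftpb (0.69). The summed signal of the 9 markers, in which the brightest genes weigh most, ran from 14.04 to 14.48 in the AdGFP wells. In the AdHIF1a wells it ran from 14.01 to 14.43. The 6 known HIF targets read here (Slc2a1, Pdk1, Vegfa, Adm, Egln3 and Car9) were all called higher with AdHIF1a, with a median difference of 2.05. The rat probe set of Hif1a itself was lower (-0.48 ± 0.08, limma adjusted p = 0.0217; 0.0875, 0.0870 and 0.113 without rat 2, 3 or 4). It does not check the labels, because which species' HIF1a the virus carries and what the probes match are unstated. Array upper quartiles ran from 7.62 to 7.68 and array medians from 5.00 to 5.20. Centring each array on its median gave 635 genes called higher and 1324 lower, against 1032 and 1411 as deposited. Summed lymphocyte markers ran from 8.13 to 8.51 in AdGFP wells and from 7.95 to 8.15 in AdHIF1a wells. Those of neutrophils ran from 6.31 to 6.57 and from 6.22 to 6.33, and all 9 lymphocyte and 5 neutrophil markers had a negative mean difference. Summed fibroblast markers ran from 7.48 to 7.59 and from 7.34 to 7.56, and those of endothelium from 6.39 to 6.59 and from 6.51 to 6.71. Of these genes the neutrophil gene S100a9 was called lower and no other was called. S100a9 had mean signals of 4.06 (AdGFP) and 3.47 (AdHIF1a), below the lower quartile of all genes (4.26).

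Calls among genes of the NF-kB machinery are read against the 5.68% of all genes that were higher and the 7.77% that were lower. Of 17 measured subunits, kinases and inhibitors, 3 were higher and 2 lower at an unadjusted p under 0.05 in limma. Of all 18166 genes, 2214 and 2806 were. After adjustment 0 of the 17 were higher and 1 lower, with a median difference of 0.02 against -0.01 over all genes. The lower gene was Bcl3, an IkB family member that acts in the nucleus, at -0.59 ± 0.10 (adjusted p = 0.0181; 0.0722, 0.0757 and 0.0881 without rat 2, 3 or 4). Rela, the main activating subunit, differed by 0.32 ± 0.09 (limma adjusted p = 0.0741) and passed under 5 alternatives (0.0153 to 0.0479). Nfkb1, which encodes the p50 subunit, differed by -0.16 ± 0.10 (adjusted p = 0.385 in limma).

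Receptors and adaptors upstream of NF-kB went both ways, with 4 of 20 higher and 2 lower (median 0.08). Traf6, the ubiquitin ligase that relays interleukin-1 and Toll-like receptor signals, rose by 0.74 ± 0.09, and Tnfrsf1a, the main receptor of tumour necrosis factor, by 0.59 ± 0.09. Il1r1, the signalling receptor of interleukin-1, fell by 0.995 ± 0.14, from 9.16 ± 0.09 to 8.16 ± 0.38 (SD), while its partner chain Il1rap rose by 0.59 ± 0.10. Outside the naming rule, Traf3 was also higher and Tlr4, the endotoxin receptor, lower. Limma adjusted p was 0.00775 for Traf6, 0.0129 for Tnfrsf1a, 0.0119 for Il1r1 and 0.0190 for Il1rap. Without rat 2 these became 0.0572, 0.0801, 0.0663 and 0.0992. Without rat 4 they were 0.0519, 0.0774, 0.0389 and 0.0803, and Il1rap was also lost without rat 3 (0.0683).

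Among the receptors of the member ligands and of Icam1, 2 of 15 were higher and 2 lower (median -0.07), and 3 of these are the genes just named. The other was Itgal, a leukocyte integrin subunit that binds Icam1, which fell by 0.72 ± 0.16 (limma adjusted p = 0.0430). Itgal was not called without the rat as a block (0.191) or without rat 1, 2 or 4 (0.105, 0.162 and 0.173), and its partner Itgb2 differed by -0.22 ± 0.19 (adjusted p = 0.530). Itgal and Itgb2 are made by leukocytes, whose markers are given above. The chemokine receptors Cxcr2, Ccr2 and Ccr6 had mean signals of 3.76, 2.86 and 3.48 in the AdGFP wells, below the lower quartile of all genes (4.26), and differences of 0.08 ± 0.13, -0.21 ± 0.13 and 0.13 ± 0.13. The interleukin-6 receptor chains Il6r and Il6st differed by 0.29 ± 0.10 and 0.23 ± 0.08 (limma adjusted p = 0.120 and 0.139).

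Genes that restrain NF-kB or the stability of cytokine transcripts had 2 of 18 members lower and 0 higher (median -0.12). At an unadjusted p under 0.05 in limma, 5 were lower and 3 higher, against 2806 and 2214 of all 18166 genes. Zfp36l1, which promotes the decay of transcripts with AU-rich elements, fell by 0.75 ± 0.14 (adjusted p = 0.0243; 0.0577 to 0.112 without any 1 rat). Otud7b, a deubiquitinase, fell by 0.58 ± 0.11 (adjusted p = 0.0280; 0.134, 0.108 and 0.127 without rat 2, 3 or 4). Il1rn, the antagonist of the interleukin-1 receptor, was lower in all 4 rats (-1.52, -0.32, -0.59 and -1.54), with a mean of -0.99 ± 0.24 just outside the threshold (limma adjusted p = 0.0542, and 0.0181 to 0.0441 under the 6 alternatives in which it passed).

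Some of the 31 measured cytokine and chemokine genes other than the members had larger differences than any of the 9 members. Of the 31, 5 were higher and 4 lower, with a median of 0.11 against 0.18 for the members. Ccl5, a chemokine for T cells and monocytes, rose by 2.86 ± 0.47, or 2.16, 4.06, 1.42 and 3.80 in rats 1 to 4 (limma adjusted p = 0.0186; 0.0724 and 0.0882 without rat 2 or 4). Tnfsf10, the death ligand TRAIL, fell by 1.61 ± 0.22, Ltb, lymphotoxin beta, by 1.46 ± 0.18 and Cxcl17, a chemokine of mucosal epithelia, by 1.30 ± 0.11. These 3 calls held without any 1 of the rats (highest adjusted p 0.0499, 0.0469 and 0.0285). Cxcl3, a further ligand of Cxcr2, differed by 0.42 ± 0.15 (adjusted p = 0.155 in limma). Other transcripts driven by NF-kB had 6 of 26 members lower and 2 higher (median -0.02). The lower count includes Hif1a, whose probe set is described above. Plau, the urokinase gene, fell by 1.23 ± 0.13 (limma adjusted p = 0.00581; at most 0.0416 without any 1 rat), and Cfb, complement factor B, by 0.72 ± 0.09 (0.0104; 0.244 without the rat as a block and 0.0548 and 0.0567 without rat 2 or 4).

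**Figure D4:**
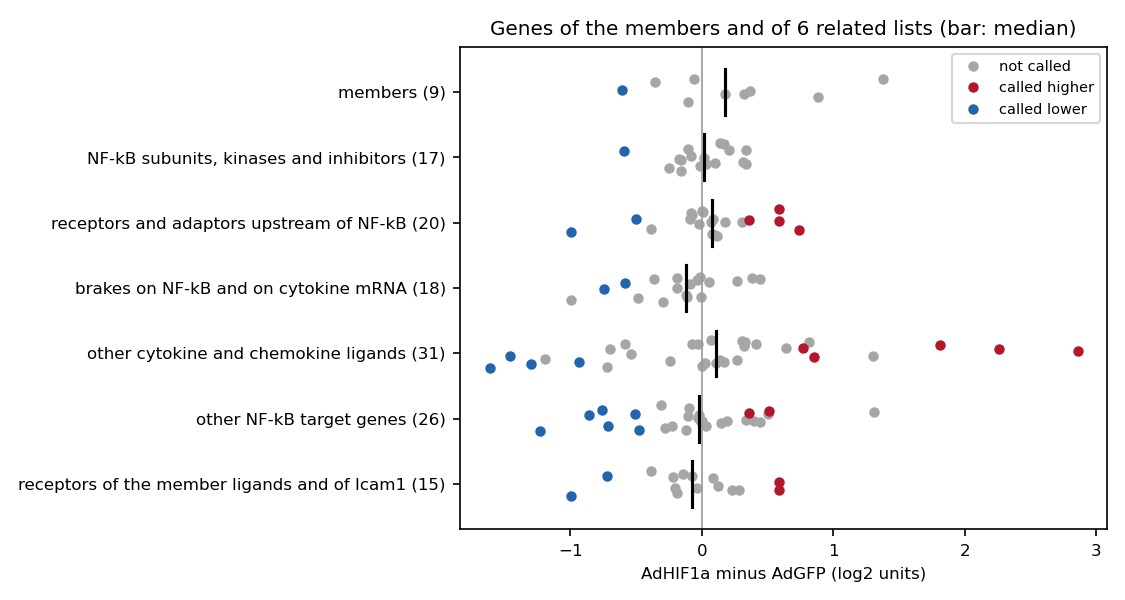
AdHIF1a minus AdGFP in log2 units (horizontal axis) for each measured gene of the members and of 6 related lists, with the number of genes in brackets, red for genes called higher, blue for genes called lower, grey for the rest and a bar at the median. All medians lie between -0.12 and 0.18, and both directions are called in 4 of the 6 lists.

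The genes whose signals were most like those of the members over the 8 arrays differed from member to member. Il1b was most like Ptgs2, the inducible cyclooxygenase (Pearson r = 0.985). Cxcl2 was most like Fas, a death receptor (0.979), and Cxcl1 like Cd47 (0.973). Il6 was most like Lgals9, Gbp2 and Ifit1 (0.974, 0.971 and 0.971), which include interferon-induced genes such as Gbp2 and Ifit1. Ccl20 was most like the complement gene C3 (0.957), Nfkbia like Plxnd1 (0.986) and Tnf like Usp12 (0.960). Icam1 was most like Gna14, Msn and Limd2 (0.993, 0.992 and 0.991), all of which were called lower with AdHIF1a (-1.58, -0.57 and -1.22). These are the highest of all genes with a mean signal above the median gene, the 8 arrays share rats and viruses, and the correlations are descriptions with no test.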

How the data were processed

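Total RNA of 8 wells was measured on Affymetrix arrays. The values, as deposited, are log2 signals of probe sets made with Affymetrix Expression Console per the submitters' processing notes. Their range (1.42 to 13.57) shows the log2 scale. Algorithm, software version and build were not given in the sources used here. No further scaling was applied. The files hold no detection calls, and the number of arrays limits the precision. Of 36685 probe sets, 18511 carried 1 gene symbol, 575 several and 17599 none. Where a gene had several, the one with the highest mean stood for it, which left 18166 genes.

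Groups were compared with limma 3.58.1 (R 4.3.3; lmFit, eBayes), the rat entering as a fixed block, fitted on all probe sets, and p-values were adjusted over the 18166 genes by Benjamini-Hochberg. The fixed test did not say which probe sets the variance prior should come from. The whole table was used after both forms had been seen, and the prior from named genes alone, under which more genes pass, is an added alternative. The pairing comes from the series' design. Across genes, deviations from group means correlated at 0.18 to 0.26 within rats and at -0.22 to 0.08 between rats. At most 1.95% of values were equal between any 2 arrays.

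Members, gene lists and tests were chosen with earlier results of these data known. The naming rule took, in each of 6 lists, the 3 called genes with the smallest adjusted p and the called gene with the largest difference, the 2 with the smallest p in a list with no call, and 13 genes whatever their result. For likeness it took the 3 genes of highest Pearson r. The fit was tested on simulated data. Alternatives were no block, a random block, quantile normalization, median centring, 2 filters on dim genes, a trended and robust prior, the mean of all probe sets, adjustment over all probe sets and the omission of each rat. Upstream sequences came from RefSeq (GRCr8), and motifs were searched on both strands.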

Additional observations from a re-analysis of the deposited data

Results flagged for a closer look

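In 7 of 102 groups of 4 values (34 genes, the wells of each virus and the differences within rats), the farthest value stood apart from the other 3 beyond Dixon's 95% critical value, and chance gives about 1 in 20 such groups. Among the members this was Cxcl1 in the AdHIF1a well of rat 4 (9.16). Among the other named genes it was Il1r1 and Nfkb1 in the AdHIF1a well of rat 4 (7.59 and 9.21), Ccl5 in that of rat 3 (10.02), Ccr2 in that of rat 2 (2.30), Zfp36l1 in the AdGFP well of rat 3 (11.15) and the difference of Cxcl17 in rat 4 (-1.64).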

How the results depend on the processing

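Icam1 stayed lower in every alternative run, and was not called without rat 2, 3 or 4 (range over the rats left out -0.663 to -0.543), so that members called lower numbered 0 to 1. Cxcl2 was called, and members called higher numbered 1, under median centring (1.295), a filter at the median gene or at the lower quartile (1.378 each), the trended prior (1.378) and the prior from named genes alone (1.378). With the replicate block removed, Cxcl2 differed by 1.378 (adjusted p = 0.0885) and no member changed its call. Ccl2 turned to 0.083 without rat 1 (range -0.343 to 0.083) and Cxcr2 to -0.043 without rat 2 (range -0.043 to 0.18). The filters removed Cxcr2, Ccr2 and Ccr6, and the filter at the median gene also Ccl20, Il6 and Il6r, so these have no value there. Of all genes, 635 were higher after median centring and 1576 with the prior from named genes alone, and leaving out 1 rat gave 315 to 775 higher and 246 to 1231 lower. Median centring moved the median difference of all genes to -0.088. The causes were not tested.

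Counts in the gene lists are small and moved with the settings. Subunits, kinases and inhibitors higher numbered 1 without the block or with the filter at the lower quartile, and 2 with a random block, the filter at the median, the trended prior or the prior from named genes. Brakes higher numbered 1 with the filter at the lower quartile or the trended prior, 2 without the block, with a random block or with the prior from named genes, and 3 with the filter at the median. Brakes lower numbered 4 with a random block, median centring, either filter or the trended prior, and 5 with the prior from named genes. Other ligands lower numbered 7 after median centring and 8 with the prior from named genes. Other NF-kB targets higher numbered 4 with either filter or the prior from named genes, 1 when adjusted over all probe sets and 0 after median centring. Receptors of the ligands lower numbered 1 without the block and when adjusted over all probe sets. Without 1 rat, the higher and lower counts ran from 0 to 0 and 0 to 1 for subunits, from 0 to 3 and 0 to 1 for upstream receptors and adaptors, from 0 to 0 and 0 to 1 for brakes, from 0 to 2 and 3 to 4 for ligands, from 0 to 0 and 1 to 5 for other targets, and from 0 to 2 and 0 to 2 for receptors of the ligands.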

Other observations

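The chemokines Cxcl10 and Cxcl11, ligands of Cxcr3 that interferons and NF-kB both induce, lay outside the naming rule and were described after their values were seen. Cxcl10 gave 11.06, 8.87, 10.31 and 8.80 with AdGFP in rats 1 to 4 and 11.95, 12.19, 11.86 and 12.10 in the AdHIF1a wells. The 4 AdHIF1a wells lay close together and above all AdGFP wells, and the difference was 2.27 ± 0.46 (limma adjusted p = 0.0316). Cxcl11 gave 10.72, 8.59, 10.51 and 8.75 with AdGFP and 11.77, 11.41, 11.33 and 11.32 with AdHIF1a, a difference of 1.82 ± 0.38 (adjusted p = 0.0354). Their AdGFP wells were lowest in rats 2 and 4, as for 8 of the 9 members. None of the 5 ligand genes called higher remained called without rat 2 or without rat 4.

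The cytokine gene Lif and the interleukin-23 subunit gene Il23a were higher by 0.77 ± 0.15 and 0.85 ± 0.17 (limma adjusted p = 0.0263 and 0.0281), and the groups of neither gene overlapped. Il7, a lymphocyte growth factor, was lower by 0.94 log2 units (-0.94 ± 0.13, adjusted p = 0.0127).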
